A study of Mus musculus with 4 samples.

Results

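Genomic imprinting is the marking of a gene in the germ line so that the copy from 1 parent is expressed and the copy from the other is silenced. The genes described here are 39 imprinted mouse genes, listed by symbol, in muscle stem cells at rest and after culture. Of these, 38 had a row in the deposited tables and 34 were measured, meaning that they reached 5 CPM, the unique molecular identifiers (UMIs) counted for a gene per 1000000 UMIs of its library, in at least 1 of 4 libraries, a level that 10323 of all 31055 genes reached. By what is known of them, 10 of the 39 are expressed from the maternal copy, of which 7 were measured, and 19 from the paternal copy, of which 17 were measured. Another 7 are maternal in a limited set of tissues and 3 have transcripts of different parental origin, and all of these were measured. The parental labels are background: reads were not assigned to parental copies, so a value is the sum over both copies.

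Imprinted genes lie in clusters, called domains, in which a control region methylated on 1 parental copy sets which genes are read, often through a long non-coding RNA. Many paternally expressed members, such as Igf2, promote growth, and several maternally expressed members, such as Grb10 and Igf2r, restrain it. Muscle stem cells lie beneath the sheath of a muscle fibre and rebuild it after injury, and Igf2, H19, Dlk1 and Peg3 are among the imprinted genes known for roles in muscle growth and repair.

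Cells were sorted by nuclear GFP from Tg:Pax7-nGFP mice aged 2 to 4 months, in which Pax7 regulatory sequence drives the reporter, and were profiled by droplet single-cell RNA sequencing, in which each UMI stands for a captured RNA molecule. There was 1 library for each of 4 groups, so no difference below has a replicate check: quiescent cells of the extraocular muscle (EOM), which moves the eye, quiescent cells of a leg muscle, the tibialis anterior (TA), and cells of each muscle activated by 4 days of culture on Matrigel in growth medium at 3% oxygen. All 4 groups carried the transgene, and how many animals gave each library is not given in the sources used here. The activated groups are mixtures, since 2912 of 5532 EOM cells and 2774 of 4234 TA cells held a UMI of Myog, Mymk or Mymx, genes of cells that have begun to differentiate, after each cell was thinned to 2000 UMIs.

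After filters on genes, mitochondrial UMIs, doublets and 16 endothelial-like cells, 3594 EOM and 2908 TA cells at rest and 5563 EOM and 4281 TA cells from culture were summed per library. Their median depth was 4662 and 5038 UMIs per cell in the quiescent libraries against 21261 and 23383 in the activated ones. Quiescent TA stood apart, since 40.5% of its barcodes exceeded 10% mitochondrial UMIs against 11.7% to 24.7% in the others. Pairs of libraries shared 3 to 7 cell barcodes among kept cells. All 12 muscle stem markers were at 5 CPM or more in both quiescent libraries, and at 9 and 10 of 12 after activation. The 10 macrophage markers summed to 30.7 CPM in quiescent TA, where 1 was at 0, and to 1.25 to 5.90 CPM in the other libraries, where 6 to 8 were at 0. The 8 fibroblast markers summed to 599 and 708 CPM at rest and to 79.4 and 58.2 CPM after activation, while the 9 mural markers summed to 558 and 386 CPM at rest and 2285 and 1499 CPM after activation, and the 5 tendon markers to 19.6 and 13.9 CPM and then 94.4 and 181 CPM. Endothelial markers summed to 47.1 and 22.1 CPM at rest and 8.25 and 6.01 CPM after activation, and neuronal ones to at most 1.63 CPM at rest and to 12.3 and 70.6 CPM after activation. The part of such cells in the results was not tested. Fewer cells with a gene and less RNA per cell cannot be told apart from a summed level, so shares of cells are given for several genes. CPM is a share of a library's UMIs, so a lower CPM in the deeper activated libraries need not mean fewer UMIs per cell.

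The members fall into 19 domains on 10 chromosomes, and 16 of the 39 lie on chromosome 7. In GENCODE vM21, which uses the GRCm38 assembly that the mm10 build of the files also names, Meg3 spans chr12:109541001-109571726, Dlk1 chr12:109452823-109463336 and Mirg chr12:109729764-109749460, all on the plus strand of 1 domain. H19 spans chr7:142575529-142578143 and Igf2 chr7:142650766-142666816, both on the minus strand. Mest spans chr6:30723547-30748465 on the plus strand, and Peg3 chr7:6703892-6730431 on the minus strand. Of the 39 members, 17 are overlapped by another listed feature on the opposite strand, among them the member pairs Igf2r and Airn, Nnat and Blcap, and Mest and Copg2. Whether counting used strand is not given in the sources used here, so reads of such partners cannot be told apart.

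The start windows of Meg3 and Dlk1 are shown because both genes were far lower after activation although they are read from opposite parental copies, and that of Peg3 because it carries the same 8 letters as Meg3 while its level hardly differed. Each is the RefSeq window (GRCm38.p6) from 250 bases before to 50 bases after a start, written 5′ to 3′ on the gene's strand, with TGACGTCA, the cAMP response element, in capitals. The Meg3 window is chr12:109540746-109541045 on the plus strand, the Dlk1 window chr12:109452573-109452872 on the plus strand and the Peg3 window chr7:6730370-6730669 on the minus strand.
Meg3: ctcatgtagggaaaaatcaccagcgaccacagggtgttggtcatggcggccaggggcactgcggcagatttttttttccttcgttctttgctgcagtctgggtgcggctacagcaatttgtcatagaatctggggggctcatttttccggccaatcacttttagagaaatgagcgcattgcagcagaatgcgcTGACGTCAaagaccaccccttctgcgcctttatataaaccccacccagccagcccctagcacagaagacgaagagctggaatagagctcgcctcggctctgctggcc
Dlk1: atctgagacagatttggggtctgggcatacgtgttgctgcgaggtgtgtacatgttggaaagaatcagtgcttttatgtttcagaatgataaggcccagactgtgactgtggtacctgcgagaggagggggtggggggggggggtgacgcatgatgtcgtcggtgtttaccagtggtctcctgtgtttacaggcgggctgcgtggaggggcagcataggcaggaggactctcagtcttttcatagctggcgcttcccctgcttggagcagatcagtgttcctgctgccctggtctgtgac
Peg3: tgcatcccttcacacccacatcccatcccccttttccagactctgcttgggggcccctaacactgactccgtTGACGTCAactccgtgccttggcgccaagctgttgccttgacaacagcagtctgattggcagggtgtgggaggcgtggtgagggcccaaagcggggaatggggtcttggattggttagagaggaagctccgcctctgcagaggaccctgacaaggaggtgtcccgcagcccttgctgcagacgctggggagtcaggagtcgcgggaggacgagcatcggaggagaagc
TGACGTCA, which reads the same on both strands, stood in the Meg3 and Peg3 windows shown and not in that of Dlk1. A second Meg3 window of the table, chr12:109545148-109545447, does not hold it. Of all 32851 promoter windows 1.79% hold it, and of the 51 windows of the 34 members matched by symbol 5.88% do, namely those of Meg3, Peg3 and Usp29, whose window overlaps that of Peg3 on the other strand. These letters are a description of the window and were not linked to binding of a factor.

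H19, Mest and Meg3 also carry microRNA hairpins inside their gene bodies, and Mirg carries 14 in the RefSeq table. MicroRNAs were not measured in these libraries. Mature sequences of these 4 hosts are shown, since their host transcripts are described below, with the seed, bases 2 to 8, in capitals.
miR-675-5p (H19): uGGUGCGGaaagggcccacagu
miR-675-3p (H19): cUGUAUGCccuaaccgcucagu
miR-335-5p (Mest): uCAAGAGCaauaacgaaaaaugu
miR-770-5p (Meg3): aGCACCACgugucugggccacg
miR-453 (Mirg): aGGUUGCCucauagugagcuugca
miR-496a-5p (Mirg): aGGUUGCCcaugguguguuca
miR-409-3p (Mirg): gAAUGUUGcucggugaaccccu
miR-410-3p (Mirg): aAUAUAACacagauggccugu
Among the mature sequences inside H19, Mest, Igf2, Meg3, Rian and Mirg, miR-453 and miR-496a-5p of Mirg were the pair with a shared seed, GGUUGCC.

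**Figure D1:**
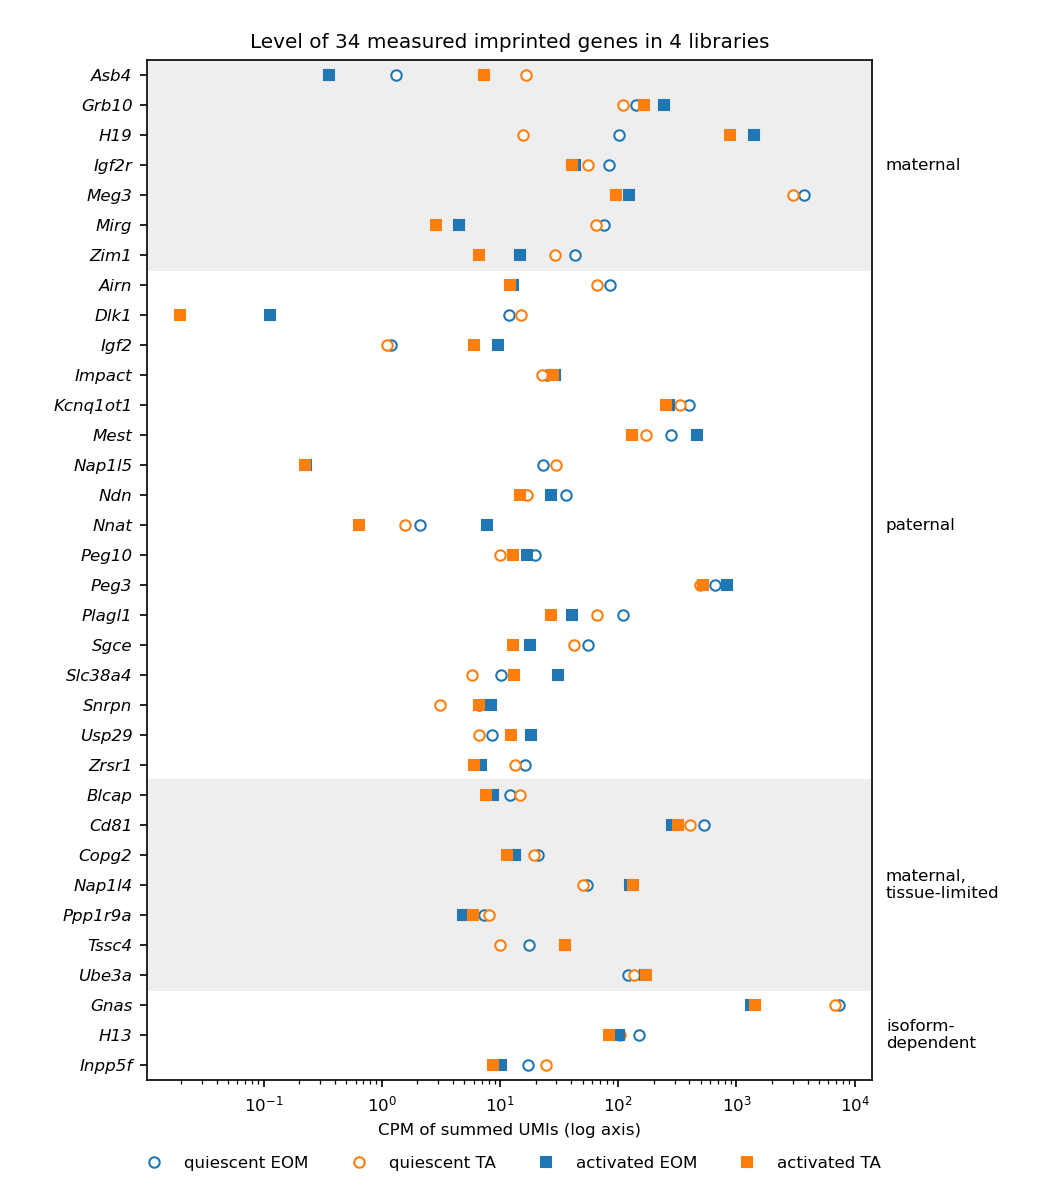
Level of each measured imprinted gene in CPM of summed UMIs (log axis), with open circles for quiescent and filled squares for activated libraries, blue for EOM and orange for TA. Meg3, Mirg, Dlk1 and Nap1l5 are far to the left after activation in both muscles and H19 and Igf2 to the right, while Peg3 lies between 493 and 836 CPM in all 4 libraries.

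Activation was compared within each muscle, which asks how imprinted genes differ between resting cells and cells 4 days into culture. Imprinted genes differed in both directions, as genes at large did. The maternal RNAs of the Dlk1-Meg3 domain, Dlk1, Nap1l5, Gnas and Airn were lower in activated cells of both muscles, and H19, Igf2, Tssc4, Nap1l4 and Slc38a4 were higher. In EOM, 7 of 33 measured members passed 2-fold upwards and 10 downwards in activated cells, beside 25.4% and 25.3% of the 10065 genes at this level. These EOM counts were near the shares over all genes. In TA, 6 of 33 were higher and 12 lower, beside 29.2% and 24.7% of 9860 genes. The median log2 ratio of the members was -0.49 in EOM and -0.39 in TA, against 0.06 and 0.14 over all genes. Activated and quiescent libraries differ in composition: TMM scaling moved the median of all genes to 0.47 in EOM and 0.44 in TA, that of the members to -0.14 and -0.11, and the counts of members to 9 higher and 9 lower in EOM and 7 higher and 9 lower in TA. Under it 35.7% of all genes were higher and 18.9% lower in EOM, and 36.1% and 20.2% in TA.

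Meg3, a maternally expressed long non-coding RNA, was at 3740.5 CPM in quiescent EOM, 3036 CPM in quiescent TA, 124 CPM in activated EOM and 94.9 CPM in activated TA. Both quiescent libraries were therefore far above both activated ones, by 30.1-fold in EOM (95% counting interval 29.5 to 30.6) and 32.0-fold in TA (31.3 to 32.7). The intervals here and below cover counting error only. Mirg, the microRNA host at the far end of the domain, was at 75.1 CPM in quiescent EOM, 65.4 CPM in quiescent TA, 4.46 CPM in activated EOM and 2.87 CPM in activated TA. Mirg was thus 16.8-fold (15.2 to 18.6) and 22.8-fold (20 to 26.0) lower after activation. Dlk1, a paternally expressed transmembrane protein related to Notch ligands, was at 11.8 CPM in quiescent EOM, 15.1 CPM in quiescent TA, 0.114 CPM in activated EOM and 0.0196 CPM in activated TA, the last from 2 UMIs. Genes of the domain read from either parental copy were thus lower in activated cells, the ratio for Dlk1 being 103-fold in EOM (60.3 to 193) and 773-fold in TA (212 to 6421). The TA ratio rests on few cells, since a cluster of 19 cells held 224 of the 232 Dlk1 UMIs of quiescent TA. The counting interval does not cover such clumping. Rian, which lies between Meg3 and Mirg, had no row in the feature list and is not analysed here.

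The share of cells with a Meg3 UMI had the same order as its summed level. At 2000 UMIs per cell, Meg3 was found in 94.7% of quiescent EOM cells (exact binomial interval 93.9 to 95.4), 88.5% of quiescent TA cells (87.2 to 89.6), 13% of activated EOM cells (12.1 to 13.9) and 6.92% of activated TA cells (6.17 to 7.73). Without thinning the shares were 97.2%, 92.2%, 40.3% and 21.8%. Meg3 also had a UMI in 7 of the 16 endothelial-like cells removed from quiescent TA, at a median of 5194.5 UMIs per cell, so droplets of another cell type held some Meg3 as well.

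Nap1l5, a paternally expressed nucleosome assembly retrogene, fell outside that domain and showed a difference of like size. It was at 23.3 CPM in quiescent EOM, 29.6 CPM in quiescent TA, 0.228 CPM in activated EOM and 0.225 CPM in activated TA, which is 102-fold (69.6 to 156) and 132-fold (86.6 to 209.7) lower. Gnas, which encodes the stimulatory G protein alpha subunit that couples receptors to cAMP, was at 7309 CPM in quiescent EOM, 6768 CPM in quiescent TA, 1335 CPM in activated EOM and 1424 CPM in activated TA. The quiescent levels of Gnas were 5.47-fold (5.43 to 5.51) and 4.75-fold (4.71 to 4.79) above the activated ones, and its transcripts of different parental origin share this 1 count.

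Airn, a paternal non-coding RNA that runs antisense to Igf2r and silences it in cis outside neurons, was at 85.9 CPM in quiescent EOM, 65.5 CPM in quiescent TA, 13 CPM in activated EOM and 12.2 CPM in activated TA. That is 6.63-fold (6.17 to 7.12) and 5.38-fold (4.94 to 5.85) lower in activated cells. Igf2r, the maternally expressed receptor that takes up IGF2 for breakdown, had levels of 83.8, 56.0, 42.7 and 40.3 CPM in that order, so it was also lower after activation but under 2-fold in both muscles. How many of the reads in either value belong to the partner gene on the opposite strand cannot be told apart.

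Of the zinc finger genes, Plagl1, a paternal factor that restrains the cell cycle, was at 110.2 CPM in quiescent EOM, 65.8 CPM in quiescent TA, 40.4 CPM in activated EOM and 27.1 CPM in activated TA. Zim1, maternal and next to Peg3, was at 42.9 CPM in quiescent EOM, 28.9 CPM in quiescent TA, 14.7 CPM in activated EOM and 6.63 CPM in activated TA. Both were lower in activated cells, Plagl1 by 2.73-fold in EOM and 2.43-fold in TA, and Zim1 by 2.93-fold in EOM and 4.36-fold in TA. Sgce, the paternal epsilon-sarcoglycan of the membrane complex around dystrophin, was at 56.0 CPM in quiescent EOM, 42.4 CPM in quiescent TA, 18.1 CPM in activated EOM and 13 CPM in activated TA. It was 3.09-fold and 3.25-fold lower after activation, whereas Peg10, which starts beside Sgce on the opposite strand and is paternal too, ranged only from 9.90 to 19.6 CPM. Inpp5f, an inositol phosphatase with an imprinted transcript variant, was at 17.4 CPM in quiescent EOM, 24.4 CPM in quiescent TA, 10.1 CPM in activated EOM and 8.80 CPM in activated TA, and passed 2-fold in TA at 2.78-fold lower. Zrsr1, a splicing factor retrogene, was 2.36-fold lower in EOM and 2.21-fold lower in TA, and 1.79-fold and 1.82-fold under TMM scaling, which ends both calls. TMM scaling also put Plagl1 in TA just under 2-fold and Asb4 in TA at 1.86-fold lower.

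H19, a maternally expressed non-coding RNA that shares its control region with Igf2, was at 102 CPM in quiescent EOM, 15.6 CPM in quiescent TA, 1417 CPM in activated EOM and 879 CPM in activated TA. Both activated libraries were far above both quiescent ones, by 14-fold in EOM (13.3 to 14.6) and 56.4-fold in TA (49.7 to 64.4). H19 was found in 14.6% of EOM and 2.63% of TA cells at rest when each was thinned to 2000 UMIs, and in 91.6% and 79.0% of the cultured cells, or in 25.8%, 5.95%, 99.9% and 99.4% without thinning. No UMI of H19 was found in the 16 endothelial-like cells, and the exact interval of that share ends at 20.6%. Igf2, the paternal growth factor gene of the same domain, was at 1.2 CPM in quiescent EOM, 1.11 CPM in quiescent TA, 9.58 CPM in activated EOM and 6.03 CPM in activated TA. The maternal and the paternal gene of the H19-Igf2 domain were thus both higher in activated cells, Igf2 by 7.97-fold in EOM (5.19 to 12.9) and 5.45-fold in TA (3.37 to 9.41). The listed antisense gene Igf2os was at 0.172, 0.326, 1.87 and 1.43 CPM in the same libraries.

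Among the other members that were higher, Tssc4, which assists assembly of the splicing machinery, was at 17.6 CPM in quiescent EOM, 9.90 CPM in quiescent TA, 35.6 CPM in activated EOM and 35.7 CPM in activated TA. Nap1l4, a nucleosome assembly protein gene, was at 54.6 CPM in quiescent EOM, 50 CPM in quiescent TA, 126 CPM in activated EOM and 134 CPM in activated TA. Both belong to the Kcnq1ot1 domain and were higher in activated cells of both muscles, Tssc4 by 2.03-fold and 3.61-fold and Nap1l4 by 2.31-fold and 2.68-fold. Slc38a4, a paternal amino acid transporter, was at 10.1 CPM in quiescent EOM, 5.80 CPM in quiescent TA, 31.0 CPM in activated EOM and 13.1 CPM in activated TA, a difference of 3.06-fold and 2.26-fold. Kcnq1ot1, the paternal non-coding RNA that names the domain, ranged from 256 to 393 CPM and passed 2-fold in neither muscle.

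Several members differed by less than 2-fold. Peg3, a paternal zinc finger protein, was at 661 CPM in quiescent EOM, 493 CPM in quiescent TA, 836 CPM in activated EOM and 518 CPM in activated TA, which is 1.27-fold and 1.05-fold higher after activation. Grb10, a maternal adaptor that dampens signalling from insulin and IGF receptors, had levels of 141, 109, 246 and 164 CPM in that order and was 1.75-fold and 1.51-fold higher. Under TMM scaling Grb10 and Mest passed 2-fold in EOM, at 2.30-fold and 2.20-fold higher, and Usp29 in TA at 2.30-fold higher. Ube3a, Impact, Cd81, H13, Copg2, Blcap and Ppp1r9a stayed under 2-fold in both muscles, with levels from 4.88 CPM for Ppp1r9a in activated EOM to 532 CPM for Cd81 in quiescent EOM. Magel2 had no UMI in any library, and Phlda2, Slc22a18 and Rasgrf1 stayed at or below 0.521 CPM.

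**Figure D2:**
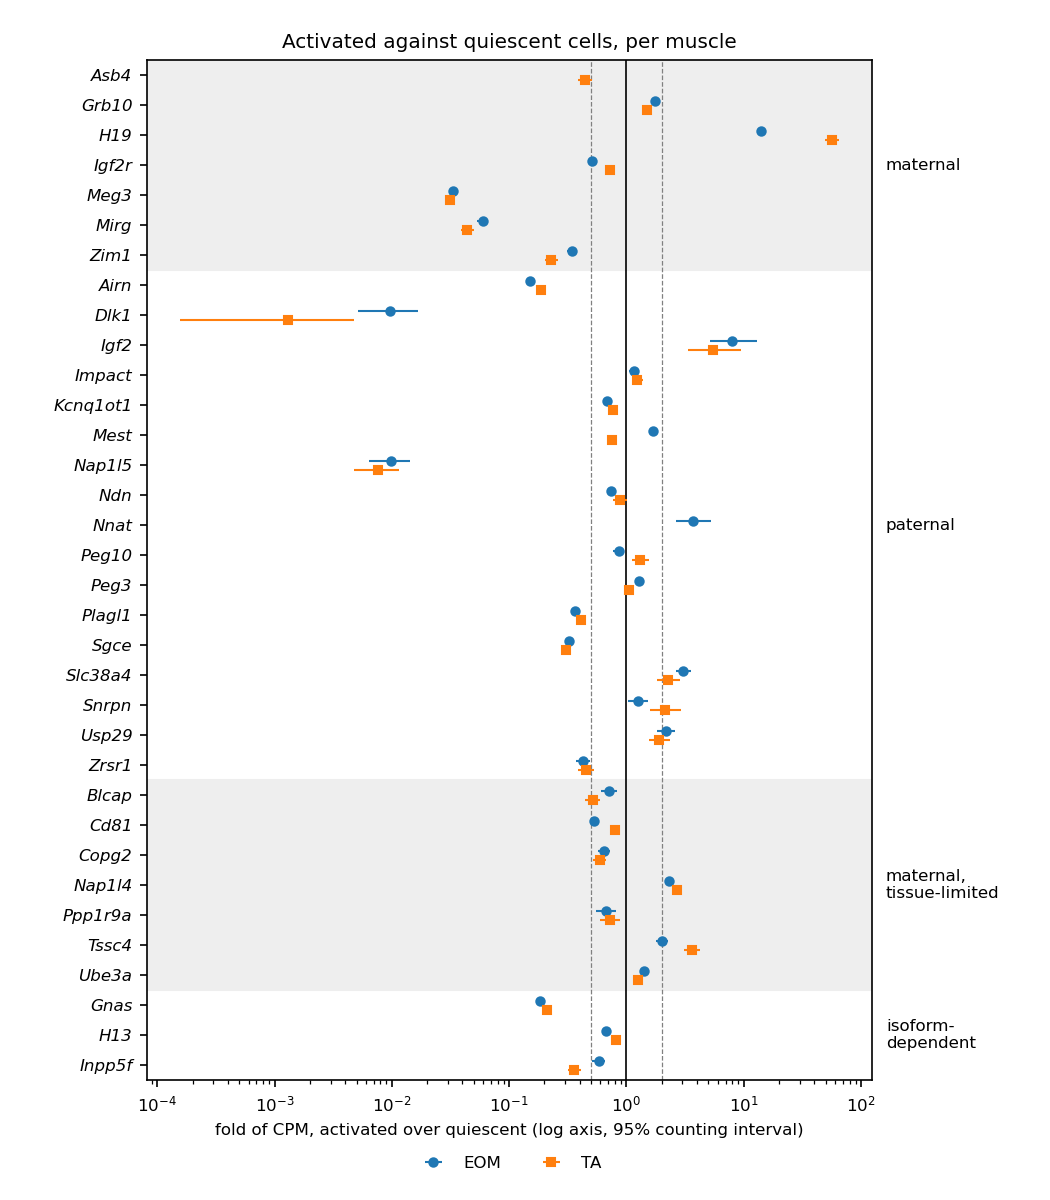
Fold of CPM in activated over quiescent cells (log axis) for each measured imprinted gene with 5 CPM or more in either library, blue circles for EOM and orange squares for TA, with 95% counting intervals and dashed lines at 2-fold. Meg3 and Mirg sit at similar places in both muscles, H19 is at 14 in EOM and 56.4 in TA, and Mest is on opposite sides of 1.

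EOM and TA cells were then compared within each state, which asks how the muscles differ. H19, Ndn and Snrpn were at least 2-fold higher in quiescent EOM than in quiescent TA and Asb4 was lower, 3 and 1 of 32 measured members beside 4.84% and 2.65% of 9228 genes. In activated cells Mest, Zim1, Nnat and Slc38a4 were higher in EOM and Asb4 was lower, 4 and 1 of 31 members beside 2.97% and 1.37% of 8892 genes. Most of the other members were higher in EOM by less than 2-fold: 25 of 32 ratios were above 1 in the quiescent state, where 62% of all genes were, and 24 of 31 in the activated state, where 48.7% were. The median log2 ratio of the members was 0.35 and 0.27, against 0.10 and -0.01 over all genes. In quiescent cells 13 of 15 paternal, 6 of 7 maternal and 4 of 7 tissue-limited members were above 1. In activated cells all 15 paternal members at this level were above 1, and 5 of 6 maternal ones, while 2 of 7 tissue-limited members were. Of those 15, Airn at 1.06 (0.988 to 1.15) and Impact at 1.04 (0.987 to 1.09) had intervals that held 1. Several of the 15 share a domain, so they are not separate observations. TMM scaling left 23 of 32 and 24 of 31 ratios above 1, and turned Gnas and Copg2 in the quiescent comparison. There H19 stayed past 2-fold, with Ndn at 1.99-fold and Snrpn at 1.96-fold. The median log2 ratios became 0.22 and 0.26 for the members and -0.03 and -0.02 for all genes, whose share above 1 was not counted under it. Median-of-ratios scaling left 21 of 32 and 23 of 31 ratios above 1. It put Impact, a paternal member, at 0.989 in activated cells.

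H19 was 6.52-fold higher in quiescent EOM than in quiescent TA (5.69 to 7.50) and 1.61-fold higher in the activated pair, from the levels given above. Asb4, a maternal ankyrin repeat and SOCS box protein gene, was at 1.32 CPM in quiescent EOM, 16.7 CPM in quiescent TA, 0.359 CPM in activated EOM and 7.39 CPM in activated TA. Asb4 was the member at least 2-fold higher in TA in both states, by 12.7-fold (8.25 to 20.3) and 20.6-fold (15.2 to 28.6). Ndn, which encodes the paternal MAGE protein necdin, was at 36.5 CPM in quiescent EOM, 16.8 CPM in quiescent TA, 27.2 CPM in activated EOM and 14.8 CPM in activated TA. The EOM level of Ndn was 2.17-fold above that of TA at rest (1.88 to 2.52) and 1.84-fold in activated cells (1.73 to 1.95).

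Mest, a paternal gene for a hydrolase-fold protein, was at 279.6 CPM in quiescent EOM, 172 CPM in quiescent TA, 467 CPM in activated EOM and 131 CPM in activated TA. The muscles stood 1.62-fold apart at rest (1.55 to 1.70) and 3.57-fold apart after activation (3.50 to 3.63). At 2000 UMIs per cell, 32.9% of EOM and 21.9% of TA cells held Mest at rest, and 50.2% and 18.7% did after culture. Without thinning these shares were 53.4%, 39.1%, 90.4% and 61.0%, beside 3 of 16 endothelial-like cells. Nnat, a paternal membrane proteolipid gene that lies within Blcap, was at 2.12 CPM in quiescent EOM, 1.56 CPM in quiescent TA, 7.76 CPM in activated EOM and 0.645 CPM in activated TA. It was 12-fold higher in activated EOM than in activated TA (9.37 to 15.7), while Blcap, its overlapping partner, differed 1.13-fold.

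**Figure D3:**
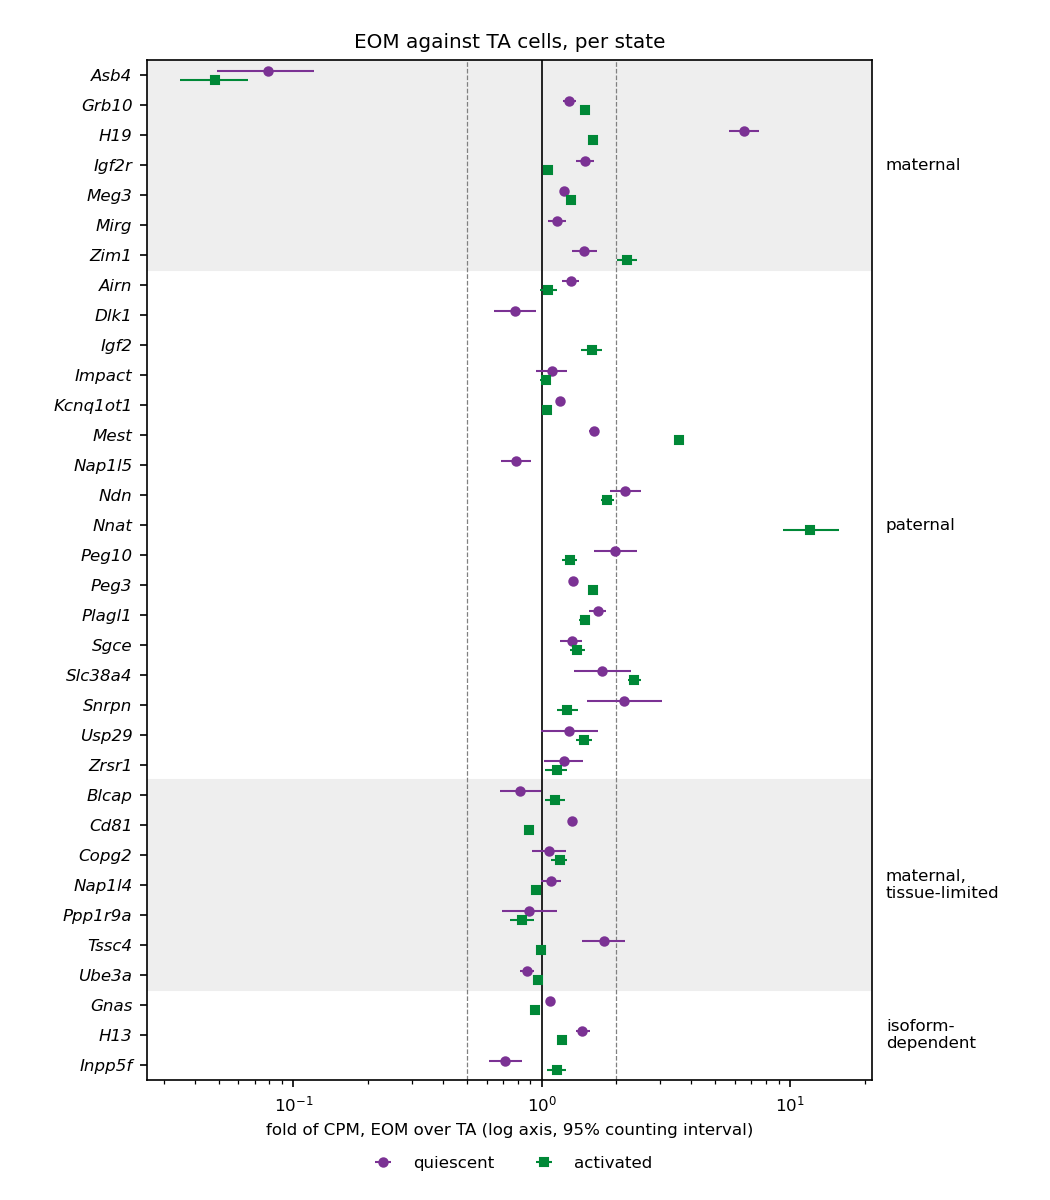
Fold of CPM in EOM over TA cells (log axis) for each measured imprinted gene with 5 CPM or more in either library, purple circles for quiescent and green squares for activated cells, with 95% counting intervals and dashed lines at 2-fold. Most points lie between 1 and 2, Asb4 lies at 0.0790 and 0.0485, and H19, Mest and Nnat lie past 2 in 1 state each.

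Cells within the quiescent libraries varied in Meg3, and the neighbouring RNAs Mirg and B830012L14Rik varied with it in both muscles. Dlk1 did not do so in EOM, and in TA too few cells held it to tell. The classes used here were chosen after the values were seen. At 2000 UMIs per cell, 185 of 3512 quiescent EOM cells and 329 of 2851 quiescent TA cells held no Meg3. Mirg, which the split did not use, was at 7.60 CPM in the EOM cells without Meg3 and 78.6 CPM in those with it, a ratio of 10.3 (5.00 to 25.8). In TA, Mirg was at 2.95 against 73.3 CPM, a ratio of 24.8 (10.6 to 76.7). B830012L14Rik, a listed non-coding RNA on the same strand between Meg3 and Mirg (chr12:109695586-109702587), was at 2.17 against 68.5 CPM in EOM and at 0.590 against 40.2 CPM in TA. The cells without Meg3 were thus, as a group, low in both of its neighbours. Dlk1 was at 19.6 against 11.4 CPM in EOM and at 0.590, from 1 UMI, against 17.0 CPM in TA. A cluster of 19 TA cells, all with Meg3, held 224 of the 232 Dlk1 UMIs of that library, so no relation can be read there.

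Outside the domain, the 28 members at this level had a median ratio of 0.975 in EOM and 0.968 in TA between cells without and with Meg3, with extremes of 0.590 for Ppp1r9a and 2.42 for Snrpn in EOM and 0.184 for Slc38a4 and 1.82 for Ppp1r9a in TA. Of these members 1 was higher by 2-fold and none lower in EOM, beside 2.96% and 2.71% of 9479 genes, and in TA none was higher and 2 were lower, beside 3.07% and 1.61% of 9076 genes. Peg3 was at 680.0 against 657 CPM in EOM and at 532 against 488 CPM in TA. Gnas was at 7045 against 7323 CPM and at 6425 against 6817 CPM. The median depth was 4808 against 4681 UMIs per cell in EOM and 4600 against 5111.5 in TA. The muscle stem markers summed to 5074 against 5004 CPM in EOM and to 6852 against 6666 CPM in TA.

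Some markers of other cells moved with the split in TA, while others hardly did. The fibroblast markers summed to 695 CPM in TA cells without Meg3 and 709 CPM in those with it, and the endothelial markers to 24.2 and 21.9 CPM. The macrophage markers summed to 192 CPM in the TA cells without Meg3 and 10.6 CPM in those with it, the glial markers to 101 and 5.45 CPM, and Myog was at 69.6 and 0.516 CPM. In EOM the macrophage sums were 7.60 and 5.79 CPM, and the glial sums 7.60 and 10.2 CPM. With every cell that held a macrophage, glial or Myog UMI left out, 174 EOM and 295 TA cells without Meg3 remained, and Mirg was at 8.09 against 79.5 CPM and at 3.36 against 72.5 CPM. A cluster of 248 quiescent TA cells led by Dcn, Thbs4 and Fmod held 95 of the 329 cells without Meg3, and its Meg3 level was 1272 CPM. In EOM, a cluster of 556 cells with Dcn among its leading genes held 52 of the 185 cells without Meg3. The Meg3 level of that EOM cluster was 3635 CPM. Over all cells split in this way, Dcn was at least 2-fold lower in those without Meg3 in both muscles.

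**Figure D4:**
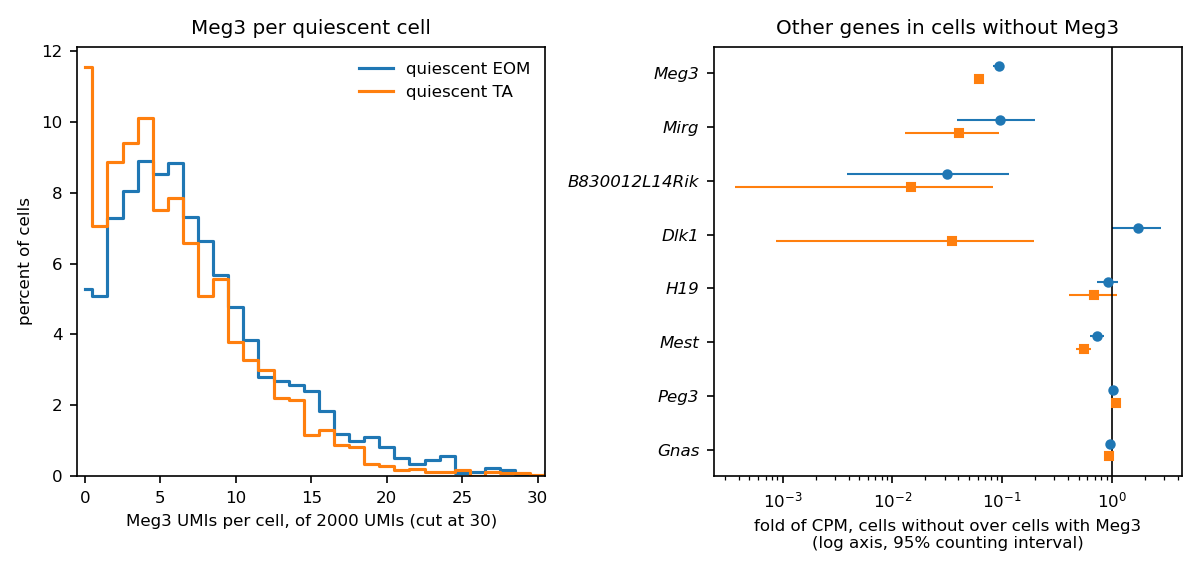
Left, share of quiescent cells with each number of Meg3 UMIs among 2000 UMIs per cell, blue for EOM and orange for TA. Right, fold of CPM in cells without over cells with Meg3 (log axis, 95% counting intervals, same colours), with Mirg and B830012L14Rik far below 1 in both muscles and H19, Peg3 and Gnas near it.

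Dlk1 was spread unevenly over quiescent TA cells. It had 232 UMIs in that library, of which 223, or 96.1%, were in 17 cells with 3 or more. In quiescent EOM 206 UMIs were spread over 106 cells, and the 21 cells with 3 or more held 47.1% of them. The summed levels of 11.8 and 15.1 CPM therefore came from many cells in EOM and from few in TA. A cluster of 19 quiescent TA cells held 224 of the 232 UMIs, with Dlk1 at 2067 CPM, Meg3 at 7159 CPM, H19 at 148 CPM, Asb4 at 148 CPM and Peg3 at 471 CPM. Dlk1, Car3, Igfbp2 and Barx2 led the genes of that cluster, so their levels there are only a description. Car3 was at 757 CPM in it, Igfbp2 at 64.6 CPM, and Barx2, a homeobox gene, at 185 CPM from 20 UMIs.

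Within activated cells, Meg3 and Mirg were highest and Peg10 lowest in late differentiating cells, as divided below. Cells were first divided by a UMI of Myog, Mymk or Mymx at 2000 UMIs. Meg3 was at 163 CPM in EOM cells with such a UMI and 85.4 CPM in those without, and at 137 against 20.9 CPM in TA, which is 1.91-fold (1.84 to 1.97) and 6.55-fold (6.08 to 7.06). In EOM, Mirg was at least 2-fold higher and Peg10 lower, 1 of 30 members each beside 6.48% and 5.96% of 9032 genes, and neither passed 2-fold when the classes were taken at 5000 UMIs or without thinning. In TA, Meg3 was higher and no member lower, 1 of 30 beside 4.04% and 1.59% of 8853 genes. Meg3 in the activated cells without these genes was still far below the quiescent level of 3740.5 and 3036 CPM.

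The differentiating cells were further divided at 20 contractile gene UMIs of 2000, a threshold chosen after the values were seen, with 431 EOM and 513 TA cells within 5 UMIs of it. Meg3 was at 271 CPM in the late and 63.5 CPM in the early EOM cells, and at 216 against 23.3 CPM in TA. Its higher level thus lay in the late cells, by 4.26-fold (4.06 to 4.47) and 9.30-fold (8.57 to 10.1), beside 5.78% and 4.31% of genes at least 2-fold higher there. The early level of Meg3 was below that of EOM cells without Myog, Mymk or Mymx, and close to that of TA cells without them. Mirg was 3.48-fold and 8.93-fold higher in late cells, at 9.61 against 2.77 CPM in EOM and 6.61 against 0.740 CPM in TA. Peg10, a paternal gene derived from a retrotransposon, was at 4.05 against 15.1 CPM in EOM and 5.99 against 15.1 CPM in TA, and Asb4 in TA was at 3.75 against 9.99 CPM, the members lower by 2-fold beside 10.7% and 3.39% of genes. Mest was at 259 against 489 CPM in EOM and 116 against 139.8 CPM in TA. H19 hardly differed, at 1467 against 1436 CPM and 903 against 895 CPM.

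**Figure D5:**
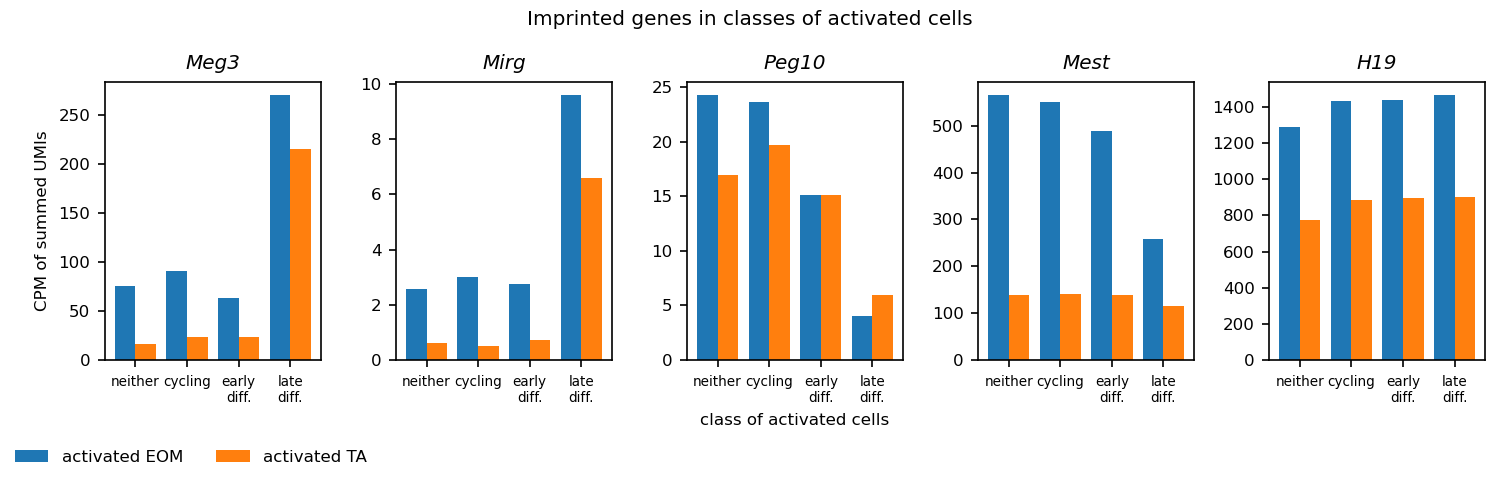
CPM of summed UMIs (linear axes from 0) of 5 imprinted genes in classes of activated cells, blue for EOM and orange for TA: cells with none of Myog, Mymk, Mymx, Mki67 or Top2a, cycling cells with Mki67 or Top2a and none of the first 3, and early and late differentiating cells. Meg3 and Mirg are highest in late cells of both muscles, Peg10 is lowest there, and H19 is nearly level.

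Lists of related genes were compared with the members. Of other genes listed as imprinted and maternally expressed, 2 of 12 were at least 2-fold higher and 7 lower in activated EOM. In activated TA 1 of 12 was higher and 8 were lower. Neither this list nor the paternal one below was divided by tissue as the members were, so no parental state in muscle cells is meant. The shares over all genes were 25.4% higher and 25.3% lower in EOM and 29.2% higher and 24.7% lower in TA. Calcr, the calcitonin receptor known for holding muscle stem cells at rest, was at 64.9 CPM in quiescent EOM, 53.1 CPM in quiescent TA, 0.155 CPM in activated EOM and 0.127 CPM in activated TA. Cdkn1c, the cell cycle inhibitor p57 of the Kcnq1ot1 domain, was at 137 CPM in quiescent EOM, 68.5 CPM in quiescent TA, 453 CPM in activated EOM and 32.0 CPM in activated TA. Cdkn1c was therefore 3.30-fold higher after activation in EOM and 2.14-fold lower in TA, and 14.2-fold apart between the activated muscles. Tfpi2, a protease inhibitor gene, was at 145 and 132 CPM at rest and 0.913 and 0.518 CPM after activation, and Dcn, which encodes the matrix protein decorin, at 38.3 and 24.0 CPM and at 0.0163 and 0.0196 CPM, the latter from 2 UMIs in each library. Dcn is also one of the fibroblast markers whose sums are given above.

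Of other paternally expressed imprinted genes, 5 of 8 were higher and 2 lower in activated EOM and 4 of 7 higher and 2 lower in activated TA, beside 25.4% and 25.3% of all genes in EOM and 29.2% and 24.7% in TA. The lower counts were near those shares. Mcts2, a retrogene inside H13, was at 7.04, 6.25, 27.4 and 29.7 CPM, with the EOM and then the TA level at rest first and those in culture last. Ddc, an amine-forming decarboxylase, was at 6.70, 3.45, 25.4 and 16 CPM in this order, higher in activated cells of both muscles as Mcts2 was. Gab1, an adaptor of growth factor receptors, was at 22.7, 23.7, 6.88 and 3.59 CPM, and Zdbf2 was at 46.4, 73.0, 17.2 and 28.0 CPM, both lower after activation.

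Of the genes that set or keep imprints, 6 of 18 were higher in activated cells of both muscles, and 2 and 3 were lower. With 25.4% of all genes higher in EOM and 29.2% in TA, and 35.7% and 36.1% under TMM scaling, the higher count was near the background. Dnmt1, the methyltransferase that copies methylation at DNA replication, was at 7.50 CPM in quiescent EOM, 4.89 CPM in quiescent TA, 119.8 CPM in activated EOM and 103 CPM in activated TA. Its partner Uhrf1 was at 0.573, 0.717, 69.8 and 66.8 CPM, and the helicase Hells at 2.52, 1.56, 89.7 and 97.1 CPM, so the highest resting level of the 3 was 7.50 CPM and the lowest level in culture 66.8 CPM. Tet2, which oxidises methylated cytosine, was lower at 11.0 and 11.5 CPM after activation against 59.9 and 68.2 CPM at rest.

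Of the genes around IGF signalling, 4 of 18 were higher and 8 lower in activated EOM, and 3 higher and 10 lower in activated TA, beside 25.4% and 25.3% of all genes in EOM and 29.2% and 24.7% in TA. Igfbp5, a secreted IGF-binding protein, was at 550.3 CPM in quiescent EOM, 541 CPM in quiescent TA, 27.7 CPM in activated EOM and 16.6 CPM in activated TA. Igfbp4 was likewise lower at 6.51 and 8.16 CPM after activation, against 357 CPM in quiescent EOM and 118 CPM in quiescent TA. Igfbp2 went the other way, from 1.32 and 0.456 CPM at rest to 138 and 24.8 CPM, and Igfbp3 from 0.458 and 4.17 CPM to 37.8 and 35.7 CPM. Between the activated muscles 6 of 17 genes of this list were higher in EOM and none was lower, beside the 2.97% and 1.37% of all genes given above.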

How the data were processed

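The authors deposited, for each library, a matrix of raw UMI counts. The submitters' processing notes name Cell Ranger 3.0.2 and the mm10 build, and give neither the annotation release nor the use of strand. Barcodes with at least 500 genes and at most 10% mitochondrial UMIs were kept, doublets were removed by Scrublet rank (0.8% per 1000 barcodes, since its automatic threshold called 0 to 2 barcodes), and cells were clustered (scanpy 1.11.5) to remove endothelial-like cells. UMIs were summed per library and scaled to CPM. With 1 library per group no test was possible: folds have exact 95% intervals for a ratio of Poisson rates, which cover counting error only, and 0 counts are set at 3 counts. The code was tested on simulated data. A difference is counted at 2-fold with 5 CPM in either library. Levels in every library are given for members at 20 CPM or more that pass 2-fold in any comparison, and up to 4 genes per related list by largest fold. Classes of cells, and the other genes given in full (Igf2, Dlk1, Asb4, Nnat, Peg3, Grb10, Igf2r, B830012L14Rik), were picked after their values were seen. Members and lists were chosen with earlier results of these data known. Alternatives were scaling (TMM and median-of-ratios, edgeR 4.0.16), level, pseudocount and cell filters, and classes of activated cells.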

Additional observations from a re-analysis of the deposited data

Results flagged for a closer look

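Mest differed between activated and quiescent cells in opposite directions, at 1.67-fold higher in EOM and a ratio of 0.760 in TA. Nnat did so too, at 3.66-fold higher in EOM and a ratio of 0.413 in TA, where 24 and 66 UMIs were counted and both libraries were under 5 CPM. Dlk1 was at an EOM to TA ratio of 0.780 in quiescent cells and 5.83 in activated cells, the latter from 14 and 2 UMIs and under 5 CPM in both. Neither this activated ratio nor that of Nnat in TA entered the counts at 2-fold. In quiescent TA, 17 cells held 96.1% of the Dlk1 UMIs. By cells the quiescent order was the other way, since 106 of 3594 EOM cells and 24 of 2908 TA cells held a Dlk1 UMI. Mest, Nnat and Dlk1 are listed because both counting intervals lay off 1 on opposite sides with ratios of at least 1.2-fold. That size was set after the values were seen. TMM scaling raised the log2 ratios of activated over quiescent TA by 0.28. Mest then stayed below 1 in TA, but by less than 1.2-fold. With 1 library per group the differences between muscles or states were not tested.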

How the results depend on the processing

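No paired analysis was possible because each group has 1 library. Of 622 ratios of called genes under the alternatives, 621 kept their direction. For many alternatives this was fixed in advance, since called genes are at least 2-fold apart. A pseudocount cannot turn a ratio past 1, a level filter only drops genes, and TMM scaling shifted log2 ratios between libraries by at most 0.40. Snrpn in quiescent EOM against TA turned to a log2 ratio of -0.06 with at most 5% mitochondrial UMIs, which leaves 46 TA cells. In that comparison the members at least 2-fold higher went from 3 to 1 under TMM or median-of-ratios scaling and to 9 with at most 5% mitochondrial UMIs. At 20 CPM, fewer genes enter: the lower count went from 1 to 0 between the quiescent muscles, the activated pair from 4 higher and 1 lower to 2 and 0, and the higher counts of activation from 7 to 4 in EOM and 6 to 3 in TA. Without a level filter the activated pair had 2 lower. For cells with against without Myog, Mymk or Mymx in EOM, the higher count of 1 became 0 with unthinned classes, 0 with 5000 UMIs, 2 under TMM, 0 at 20 CPM and 3 without cycling cells, and the lower count of 1 became 0 with unthinned classes and 0 with 5000 UMIs. In TA without cycling cells, the counts went from 1 to 2 higher and from 0 to 1 lower. The causes were not tested. Cells with at least 50% of their library's median UMIs, a set added after seeing the data, moved no count of members by over 1.5 times. Genes with few UMIs, such as Dlk1 and Nap1l5 in activated cells, have wide intervals.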

Other observations

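Across cells at 2000 UMIs, Meg3 and Mirg had the highest correlation of all pairs of members in both quiescent libraries, with Pearson's r of 0.22 over 3512 EOM cells and 0.24 over 2851 TA cells, where the cells of a library share its depth and preparation. The median over 351 pairs was 0.00 in each. The variance of Meg3 across cells was 4.89 times its mean in quiescent EOM and 4.36 times in quiescent TA, against a median of 1.39 over genes of like mean. In activated TA that ratio was 6.0, above 99.9% of 1137 genes of like mean, where 6.92% of cells held a Meg3 UMI. For Dlk1 in quiescent TA it was 7.58, above 99.9% of 2267 such genes. Meg3 in activated TA was at 41.9 CPM in cells with a Pax7 UMI and 100.1 CPM in those without, and in activated EOM at 101 and 128 CPM.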
